A study of Mus musculus with 12 samples.

Results

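Expression of 9 genes of Polycomb repressive complex 1 (PRC1) was followed in mouse hair follicle stem cells (HFSCs). The genes were chosen by name from the canonical subunits of the complex, with earlier results of these data known. They are the RING genes Ring1 and Rnf2, the PCGF genes Bmi1 and Pcgf2, the CBX genes Cbx2, Cbx7 and Cbx8, and the Polyhomeotic genes Phc1 and Phc2. All 9 were matched by symbol in both expression tables, which list 17885 genes for the Eed comparison and 21915 genes for the hair cycle comparison, and all 9 passed the filter on low values in both.

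PRC1 is a repressor that acts on chromatin. Its RING and PCGF subunits form the enzyme that places ubiquitin on histone H2A. Its CBX subunits read H3K27me3, the mark that Polycomb repressive complex 2 (PRC2) places, and its PHC subunits carry a SAM domain that joins complexes to each other. Variant PRC1 complexes hold other PCGF proteins with RYBP or YAF2 in place of CBX and PHC. In skin, PRC1 is known for keeping non-epidermal lineage genes silent, and BMI1 and CBX7 are known as repressors of the Ink4a/Arf locus.

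The study sequenced RNA of sorted HFSCs (EpCAM+, Sca1-, α6-integrin high, CD34+) from C57BL/6J back skin in 12 libraries, 3 for each of 4 groups. The Eed comparison set control mice, labelled wildtype, against K15-CrePGR: Eed fl/fl mice (Eed iKO, labelled Eed -/-), both at postnatal day 70 (P70). Eed is a core subunit of PRC2, and K15-CrePGR is a Cre that RU-486 switches on in cells of the follicle bulge. RU-486 at 10 mg/ml in ethanol, 100 μl a day, was put on shaved back skin for 7 days from P50. Control skin received ethanol alone, so genotype and RU-486 cannot be told apart. The hair cycle comparison set anagen (the growth phase, P28 to P30) against telogen (the resting phase, P50 to P52) in wild type mice, so hair phase and age cannot be told apart. Mice of both sexes were used. The study describes the libraries of the Eed comparison as biological replicates that span more than one litter, and those of each hair phase as made from several mice. How mice were divided over the hair cycle libraries is not given in the sources used here, so p-values there measure the spread between these libraries. RNA came from bulk sorted cells, in which fewer cells of a type and less RNA per cell cannot be told apart.

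Values are normalized counts, the reads of a gene in a library divided by a size factor for that library. Reads could be recovered from the Eed table, with 33269583 to 57063586 per library. For the hair cycle libraries the depth could not be recovered, and their normalized counts sum to 11370984 to 13186648. The test was limma, run on log2(normalized count + 1). On this scale a fold change is understated where counts are low. A gene was called at an adjusted p under 0.05. The 2 tables were normalized separately, so levels are not compared between them.

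Eed was examined first. Its normalized counts were 1084, 1249 and 950.2 in control and 933.3, 1361 and 1001 in the libraries labelled Eed iKO, and the groups overlapped. The log2 fold change was -0.01 (standard error 0.22), so no fall of the targeted gene was detected in these libraries and each direction below rests on the labels. The study also measured Eed transcript by RT-qPCR and H3K27me3 by staining, which are not analysed here. The value sums all Eed transcripts, and which exons are floxed is not given in the sources used here, so it is no check of the deletion itself. The 11 genes of the bulge marker list (Cd34, Krt15, Itga6 and others) summed to 1358100 to 1734370 in the Eed table. In the hair cycle table they summed to 536082 to 667815 in the libraries other than telogen replicate 1. Telogen replicate 1 stood apart at 239436. In the Eed table the largest parts were Krt15 (mean 575002 in control) and Krt5 (563666), while Cd34 had 43844. The sum is thus mostly keratin there and is no measure of bulge identity. Of the 11 there, 0 were called and 3 passed an unadjusted p under 0.05, against 14.7% of all genes. These were Itga6 (log2 fold change 0.41) and Krt14 (0.82), both higher in Eed iKO, and Nfatc1 (-0.39), which was lower. DESeq2 on recovered reads called Krt14 (adjusted p = 0.00075), and Cd34 differed by -0.33. The 10 immune markers summed to 251 to 538 in control and to 432 to 1024 in Eed iKO. Of the 7 that were tested there, 0 were called and 2 passed an unadjusted p under 0.05, Cd207 (0 in every control library, then 18.3, 13.3 and 23.7 in Eed iKO) and H2-Ab1 (8.33 to 54.4 and 83.7 to 156). The myeloid marker Lyz2 was at 0 in all control libraries and at 55.9, 65.1 and 0 in Eed iKO. The endothelial list summed to 425 to 646 in control and 336 to 697 in Eed iKO, most of it Pecam1. Of its 3 genes tested, 0 were called. The 6 melanocyte markers summed to 7819 to 9122 in control and 7887 to 8829 in Eed iKO. The 6 fibroblast markers summed to 1688 to 3279 and 1293 to 1930. Limma called 0 of the 5 melanocyte and 0 of the 4 fibroblast genes tested, and DESeq2 called 1 fibroblast gene. The part of these cell types in the values of PRC1 genes was not tested.

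Among the CBX genes, Cbx2 and Cbx8 lie close together in the genome. On chromosome 11 of GRCm38, Cbx2 (119022962 to 119031270, plus strand) and Cbx8 (119036305 to 119040969, minus strand) lie 5034 bases apart. Cbx7 (chromosome 15, 79915807 to 79971119, minus strand) lies 81118 bases from Cbx6. Phc1 lies on chromosome 6 (122317731 to 122340561, minus strand), and Phc2 on chromosome 4 (128654702 to 128752881, plus strand).

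RefSeq promoter sequences (GRCm38.p6) were matched for 8 of the 9 genes, with none for Cbx2. Stretches of the Cbx7 and Cbx8 promoters are printed because these CBX genes had opposite signs over the hair cycle, as described further on. Each is the part of the 250 bases before the RefSeq start that lies in no annotated exon of its gene, read 5′ to 3′ on the minus strand, with CpG dinucleotides in capitals.
Cbx7, chr15:79932769-79932896: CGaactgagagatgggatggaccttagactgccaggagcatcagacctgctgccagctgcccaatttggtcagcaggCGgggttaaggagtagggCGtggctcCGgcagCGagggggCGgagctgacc
Cbx8, chr11:119040970-119041163: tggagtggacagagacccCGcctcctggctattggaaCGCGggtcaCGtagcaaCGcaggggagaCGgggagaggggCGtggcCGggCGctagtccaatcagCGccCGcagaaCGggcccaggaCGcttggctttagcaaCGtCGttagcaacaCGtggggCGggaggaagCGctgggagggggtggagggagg
The printed Cbx7 stretch lies upstream of the RefSeq start, in an intron of longer Cbx7 transcripts, and holds 6 CpGs in 128 bases. The Cbx8 stretch lies just upstream of the gene and holds 18 in 194 bases. Over the whole 250 bases, Cbx7 had 23 and Cbx8 had 22 CpGs, against a median of 6 over 32851 RefSeq promoters. Phc1 had 8, a count above that of 57.0% of promoters. The window before Phc1 lies in an annotated exon and is not printed. An E2F-type motif (TTTCCCGC, TTTCGCGC, TTTGCCGC or TTTGGCGC, on either strand) was in 1.86% of all promoters and in 0 of the 10 windows of the PRC1 genes. The cell cycle homology letters TTTGAA or TTCGAA, on either strand, were in 17.1% of all promoters and in 1 window of the PRC1 genes, that of Cbx7.

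The first comparison asks whether loss of EED, and with it of the mark that CBX proteins read, goes with a change in the transcripts of PRC1 itself. None of the 9 genes was called in the libraries labelled Eed iKO. By means, Cbx2 was 1.47-fold, Pcgf2 1.44-fold and Cbx7 1.37-fold lower, and Rnf2 and Phc1 were both 1.41-fold higher. Over all 15008 genes tested, 4 were called, which is 0.0267%. At an unadjusted p under 0.05, 2 of the 9 passed (Rnf2 and Cbx2), against 14.7% of all genes. The edgeR and DESeq2 tests on recovered reads called 0.0333% and 4.52% of all genes and also 0 of the 9, with 2 and 3 of the 9 at an unadjusted p under 0.05. The median log2 fold change of the 9 was -0.11, beside -0.00 for all genes tested.

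**Figure D1:**
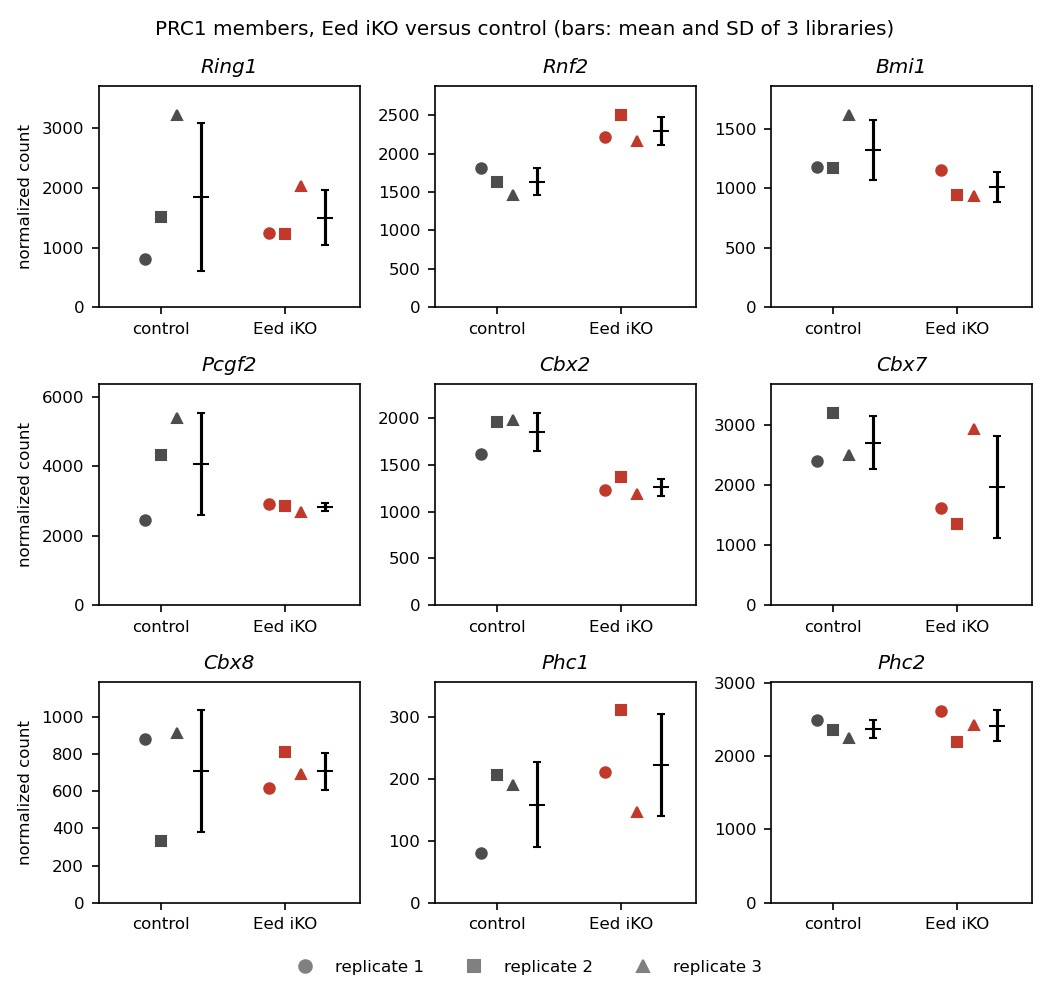
Normalized count (vertical axis, from 0) of each of the 9 PRC1 genes in the control and Eed iKO libraries. Points are libraries with the replicate number as shape, and the bar beside them is the mean with its SD (n = 3). Rnf2 lay higher, and Bmi1 and Cbx2 lower, in all 3 Eed iKO libraries than in every control library.

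Ring1 and Rnf2 encode the RING subunits that carry the ubiquitin ligase activity. Rnf2 had normalized counts of 1809, 1628 and 1463 in control and of 2221, 2503 and 2162 in Eed iKO. Every Eed iKO library lay above every control library, and the log2 fold change was 0.49 (95% interval 0.13 to 0.85, limma with Benjamini-Hochberg adjusted p = 0.200). Ring1 had 802.7, 1506 and 3222 in control and 1249, 1222 and 2035 in Eed iKO. The control libraries alone spanned a wider range than the groups differed by, and the interval of the Ring1 difference ran from -1.03 to 0.81 on the log2 scale. In both groups Ring1 was highest in replicate 3. These 2 libraries also held the highest sums of 8 upper follicle and interfollicular markers, 45642 in control and 63241 in Eed iKO beside 10048 to 23916 in the other libraries. The part of these markers in the Ring1 values was not tested.

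Bmi1 and Pcgf2 encode the PCGF partners of canonical PRC1. Bmi1 had 1181, 1167 and 1617 in control and 1156, 942.9 and 936.2 in Eed iKO. The groups did not overlap, by a margin of 1156 against 1167, and the log2 fold change was -0.38 (interval -0.83 to 0.08, limma adjusted p = 0.424). Pcgf2 had 2467, 4337 and 5396 in control and 2919, 2846 and 2693 in Eed iKO. Its Eed iKO libraries lay close together within the wide control range, and its log2 fold change of -0.46 had an interval of -0.9996 to 0.09. With a library left out, the Pcgf2 difference ran from -0.78 to -0.22 and was called in no case.

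Of the CBX readers, Cbx2 had 1617, 1962 and 1982 in control and 1226, 1365 and 1191 in Eed iKO. All 3 Eed iKO libraries lay below control. The log2 fold change was -0.55 (interval -0.93 to -0.17, limma adjusted p = 0.177), and over 13 alternative fits the adjusted p ran from 0.058 with DESeq2 to 0.525. Cbx7 had 2400, 3213 and 2512 in control and 1615, 1361 and 2941 in Eed iKO. Eed iKO replicates 1 and 2 lay below control, while replicate 3 lay inside the control range. The log2 fold change of Cbx7 was -0.53 (interval -1.11 to 0.06), and -0.86 (adjusted p = 0.071, the lowest of its alternatives, which reached 0.742) without Eed iKO replicate 3. That library also stood apart in 19 proliferation genes, which summed to 15196 in it, within the control range of 12852 to 15790. In Eed iKO replicates 1 and 2 they summed to 25570 and 27986. All 19 had a positive log2 fold change in Eed iKO (median 0.70). Limma called 0 of them and DESeq2 called 2, against 4.52% of all genes with DESeq2. At an unadjusted p under 0.05 with limma, 5 of the 19 passed, against 14.7% of all genes. The part of cycling cells in the Cbx7 values was not tested. Cbx8 had 879.0, 333 and 914.0 in control and 618.3, 812.7 and 691.1 in Eed iKO, so its Eed iKO values lay between the low control replicate 2 and the other controls. Its log2 fold change of 0.13 had an interval of -0.68 to 0.94, and its sign turned with edgeR and DESeq2.

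The 2 Polyhomeotic genes differed in how closely their libraries lay. Phc2 had 2493, 2351 and 2250 in control and 2612, 2197 and 2427 in Eed iKO. Its log2 fold change of 0.03 had an interval of -0.31 to 0.36, the narrowest of the 9. Phc1 had 79.8, 205.8 and 190.4 in control and 211.8, 310.8 and 146.3 in Eed iKO. The groups overlapped, and the log2 fold change of 0.54 had the widest interval of the 9, from -0.53 to 1.61.

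Across the 9, the groups did not overlap for 3 genes, Rnf2 higher and Bmi1 and Cbx2 lower. Over all genes tested, the groups did not overlap for 20.2%, with 10.2% higher and 10% lower in Eed iKO.

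The other PRC1 genes, among which 7 H2A deubiquitinases are counted here, were not called either. Of 27 other subunits of canonical and variant PRC1 and H2A deubiquitinases, 0 were called by limma, edgeR or DESeq2. At an unadjusted p under 0.05, 2 of the 27 passed with limma, against 14.7% of all genes (2 each by DESeq2 and edgeR). Those that passed with limma were the PCGF6 partner L3mbtl2 (log2 fold change 0.74, adjusted p = 0.280) and Rybp (-0.42, adjusted p = 0.313, limma in each). Both are named after their values were seen. Phc3 differed by -0.18 and Cbx6 by -0.17, and the variant PCGF genes by -0.42 (Pcgf1), -0.06 (Pcgf3), 0.02 (Pcgf5) and -0.12 (Pcgf6), with intervals that all spanned 0. Among PRC2 genes, 0 of 11 were called and 0 passed an unadjusted p under 0.05 (1 by DESeq2, 0 by edgeR). Ezh2 differed by -0.09, Ezh1 by -0.22 and Suz12 by 0.10. Of the INK4 genes that PRC1 is known to repress, Cdkn2b was at 6.35 to 16.0 in control and 2.66 to 31.6 in Eed iKO, and Cdkn2a was not analysed here.

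The second comparison asks whether PRC1 transcripts differ between growing and resting follicles. Phc1 rose in anagen, 10.6-fold by means, and was the only one of the 9 that was called. Cbx7 was 2.66-fold lower by means and Cbx8 1.78-fold higher, and neither was called. Of the 13457 genes tested, 1556 were called, which is 11.6%, with 7.22% higher and 4.35% lower in anagen. At an unadjusted p under 0.05, 2 of the 9 passed (Phc1 and Cbx7), against 27.3% of all genes.

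**Figure D2:**
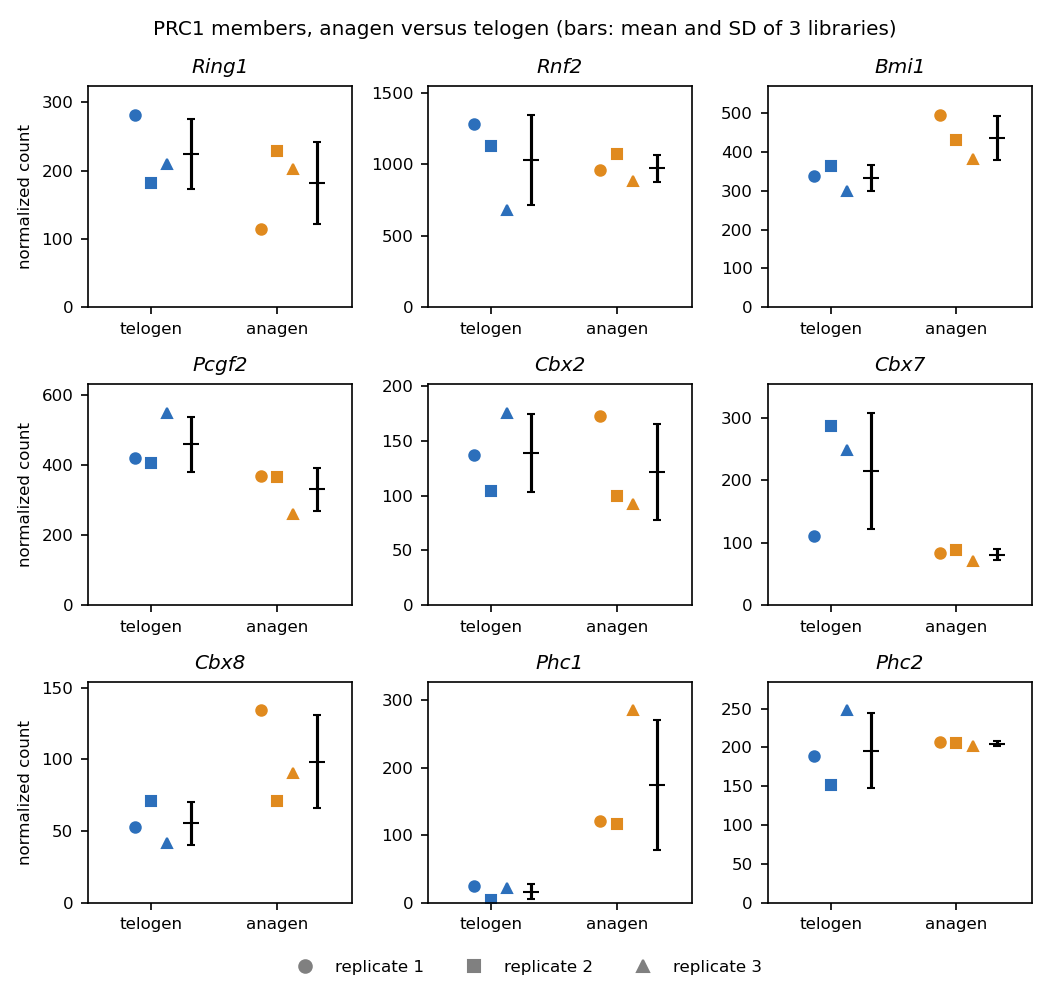
Normalized count (vertical axis, from 0) of each of the 9 PRC1 genes in the telogen and anagen libraries. Points are libraries with the replicate number as shape, and the bar beside them is the mean with its SD (n = 3). Phc1 lay between 3.83 and 24.3 in telogen and between 116.3 and 284.9 in anagen, while Cbx7 lay lower in every anagen library.

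Phc1 had normalized counts of 24.3, 3.83 and 21.4 in telogen and of 121.9, 116.3 and 284.9 in anagen. Even the lowest anagen library lay well above the highest telogen library. The means were 16.5 ± 11.1 and 174 ± 95.7 (SD, n = 3), and the log2 fold change was 3.52 (standard error 0.69, interval 2.00 to 5.04, limma with Benjamini-Hochberg adjusted p = 0.0087). Over 11 alternatives the log2 fold change ran from 2.75 to 3.94 and the adjusted p from 0.0041 to 0.053. The call was lost only without anagen replicate 3, the library with the highest Phc1, where the log2 fold change was 3.10. All 19 proliferation genes were also called higher in anagen, against 7.22% of all genes tested. Their sums were 4510 to 6085 in telogen and 31315 to 49534 in anagen. Among the anagen libraries the order was not the same, since replicate 3 had the highest Phc1 and the lowest proliferation sum. Of the markers of other cell types, 2 of 4 fibroblast genes tested (sums of 316 to 649 in telogen and 469 to 628 in anagen) and 1 of 2 endothelial genes (72.7 to 139 and 132 to 167) were called higher. Of 5 melanocyte genes, 1 was called higher and 1 lower (2882 to 3285 and 1410 to 1488), of 6 immune genes 0 were called (163 to 434 and 138 to 193), and of 8 upper follicle and interfollicular genes 1 was called higher (8403 to 16287 and 5567 to 14843). Of the 11 bulge markers 1 was called higher (Itga6) and 1 lower (Cd34). Beside these marker counts, 7.22% of all genes tested were called higher and 4.35% lower in anagen. The part of cycling cells and of other cell types in the Phc1 value was not tested.

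Over the 6 hair cycle libraries, the genes whose log2 values were most like those of Phc1 were Ubac2 (Pearson r = 0.991) and Flrt1 (r = 0.989). They were the first of 9144 genes compared, of which 56 had an r over 0.95. These r values share the 2 groups and their libraries and are a description only.

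Phc2, the paralog of Phc1, had 188.4, 152.0 and 248 in telogen and 207.2, 205.7 and 201.8 in anagen. The anagen libraries lay together inside the telogen range, and the log2 fold change was 0.09 (interval -0.59 to 0.78). Phc3, the other paralog, was lower in each anagen library, at 3995, 3754 and 4061 in telogen and 2981, 2845 and 2919 in anagen. Its log2 fold change was -0.43 (limma adjusted p = 0.117).

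The CBX genes spread in both directions. Cbx7 had 110.5, 287.4 and 248.3 in telogen and 83.8, 87.7 and 71.1 in anagen. All 3 anagen libraries lay below telogen, and telogen replicate 1 lay far nearer to them than the other telogen libraries did. The log2 fold change was -1.30 (standard error 0.42, interval -2.22 to -0.37, limma adjusted p = 0.073). Without telogen replicate 1, the library with the low sum of bulge markers, Cbx7 passed the threshold (log2 fold change -1.72, adjusted p = 0.014), and over 11 alternatives the adjusted p reached 0.183. Cbx8 had 53.1, 71.3 and 41.8 in telogen and 134.2, 70.8 and 90.3 in anagen. Telogen replicate 2 and anagen replicate 2 were nearly equal, and the log2 fold change of 0.80 had an interval of -0.18 to 1.78 (limma adjusted p = 0.273). Cbx2, the neighbour of Cbx8, had 136.8, 104.5 and 176 in telogen and 172.6, 100.1 and 92.6 in anagen, and its interval of -1.08 to 0.65 spanned 0. Cbx6 differed by 0.53 (limma adjusted p = 0.289).

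**Figure D3:**
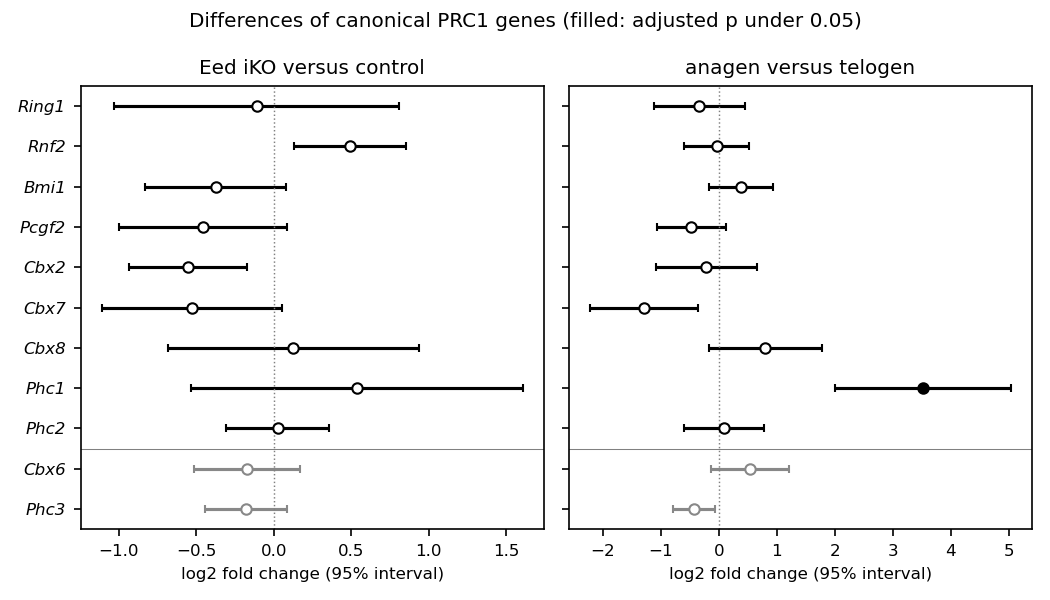
Log2 fold change (horizontal axis) with its 95% interval for the 9 PRC1 genes and, below the line, Cbx6 and Phc3, in each comparison. Positive values are higher in Eed iKO or in anagen, and a filled point marks an adjusted p under 0.05. Phc1 in the hair cycle is the only filled point, with an interval of 2.00 to 5.04.

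The PCGF genes moved apart by less. Bmi1 had 338, 363.8 and 299.2 in telogen and 496.4, 432.7 and 382.4 in anagen, where every library lay above telogen. Its log2 fold change was 0.38 (interval -0.16 to 0.93, limma adjusted p = 0.348). Pcgf2 had 419.1, 406.3 and 548.7 in telogen and 367.1, 364.6 and 259.8 in anagen, where every library lay below telogen. Its log2 fold change was -0.47 (interval -1.06 to 0.11, limma adjusted p = 0.281).

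Neither RING gene separated the phases. Rnf2 had 1284, 1128 and 680.3 in telogen and 957.5, 1073 and 883.9 in anagen, with a log2 fold change of -0.04 (interval -0.61 to 0.53). Ring1 had 281.6, 182.2 and 209.8 in telogen and 114.6, 228.5 and 203.0 in anagen. The groups overlapped for both, and the Ring1 interval ran from -1.13 to 0.45. In all, the phases did not overlap for 4 of the 9 genes, with Bmi1 and Phc1 higher and Pcgf2 and Cbx7 lower in anagen, against 33.3% of all genes tested (18.1% higher and 15.2% lower). The median log2 fold change of the 9 was -0.04, beside 0.01 for all genes tested.

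Among the 27 other PRC1 genes and H2A deubiquitinases, 1 was called, against 11.6% of all genes tested. Auts2, a subunit of PCGF3 and PCGF5 complexes, fell in anagen from 1162 ± 187 to 628 ± 49.2 (SD, n = 3), a log2 fold change of -0.88 (limma adjusted p = 0.025), and over its 11 alternatives the adjusted p ran from 0.023 to 0.098. Pcgf6, which defines a variant complex with MGA and L3MBTL2, had 105.4, 206.8 and 156.9 in telogen and 273.9, 356.3 and 273 in anagen. The phases did not overlap, and the log2 fold change of Pcgf6 was 0.98 (limma adjusted p = 0.085), with 0.048 without telogen replicate 2 and up to 0.270 in other alternatives. Pcgf1, Pcgf3 and Pcgf5 differed by -0.90, -0.06 and -0.16, with intervals that spanned 0. Of 11 PRC2 genes, 2 were called, against 11.6% of all genes tested. These were Rbbp7 (0.93) and Phf19 (3.59), both higher in anagen and named after their values were seen. Rbbp7 was no longer called without anagen replicate 1 (adjusted p = 0.066, limma), and Phf19 without telogen replicate 3 or any one of the anagen libraries (adjusted p up to 0.126, limma). Ezh2 differed by 0.33 (limma adjusted p = 0.478), Suz12 by 0.06 and Ezh1 by -1.004 (adjusted p = 0.085). Without telogen replicate 1, Ezh1 passed the threshold (log2 fold change -1.46, limma adjusted p = 0.0021), and over 11 alternatives the adjusted p reached 0.244. Cdkn2b was at 5.56 to 19.2 in telogen and 3.14 to 11.9 in anagen, and Cdkn2a was listed at 0 in each hair cycle library but anagen replicate 1, with 1.57.

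Paralogs of a pair fill the same place in the complex, so their ratio was taken within each library. Over the hair cycle, 3 of 5 ratios did not overlap between phases. Each of these holds a gene (Phc1, Cbx7, Bmi1 or Pcgf2) whose own counts did not overlap, so they are no separate result. The matching share over ratios of other genes was not computed. The log2 ratio of Phc1 over Phc2 was -2.91, -4.98 and -3.47 in telogen and -0.76, -0.82 and 0.50 in anagen, a difference of 3.43. That of Cbx8 over Cbx7 was -1.04, -2.00 and -2.54 in telogen and 0.67, -0.30 and 0.34 in anagen, a difference of 2.10. That of Bmi1 over Pcgf2 was -0.31, -0.16 and -0.87 in telogen and 0.43, 0.25 and 0.56 in anagen, a difference of 0.86. Each had a two-sided exact permutation p = 0.1, the smallest that 3 libraries against 3 allow, and 0.333 after adjustment over 10 ratios, so the design could not reach the threshold. Cbx2 over Cbx7 (difference 1.08) and Rnf2 over Ring1 (0.30) overlapped between phases.

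**Figure D4:**
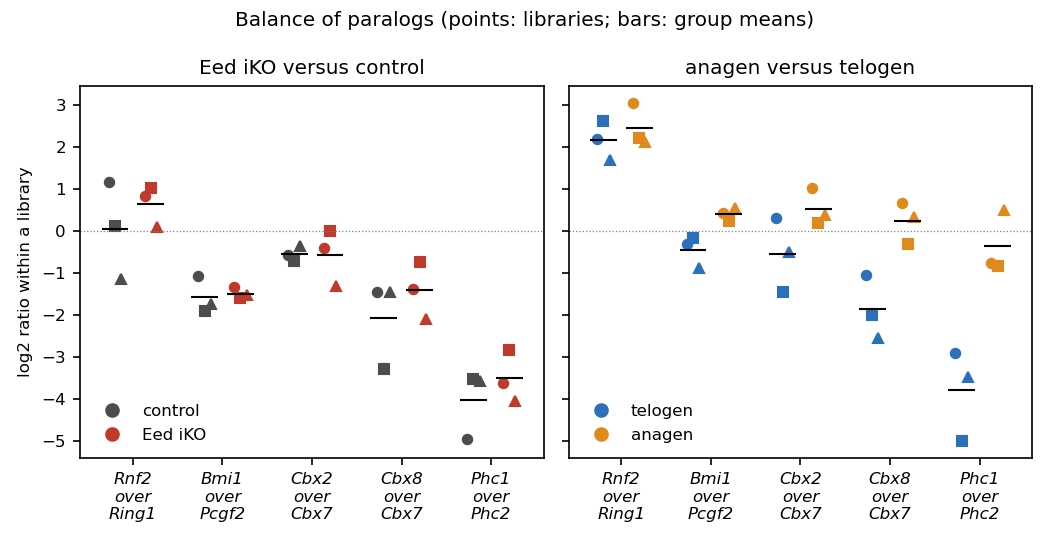
Log2 ratio of the normalized counts of 2 paralogs (vertical axis) in each library, with bars for group means and replicates 1, 2 and 3 as circles, squares and triangles. The ratios of Bmi1 over Pcgf2, Cbx8 over Cbx7 and Phc1 over Phc2 do not overlap between telogen and anagen, and all 5 ratios overlap between control and Eed iKO.

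In the libraries labelled Eed iKO all 5 ratios overlapped control. Their differences were 0.60 for Rnf2 over Ring1, 0.08 for Bmi1 over Pcgf2, -0.02 for Cbx2 over Cbx7, 0.65 for Cbx8 over Cbx7 and 0.51 for Phc1 over Phc2, with two-sided exact permutation p of 0.7, 0.8, 0.9, 0.4 and 0.6.

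To set genes beside each other, normalized counts were divided by the length of the longest protein-coding transcript in kilobases. In control, the mean level per kilobase was highest for Pcgf2 (1637) and then fell through Ring1 (906), Cbx7 (799), Phc2 (599), Rnf2 (510), Cbx2 (487), Bmi1 (368), Cbx8 (198) and Phc1 (37.7). The ranges of neighbours in this order overlapped from Pcgf2 to Cbx7 and from Rnf2 to Bmi1, and did not at the other steps. In the Eed iKO libraries Pcgf2 (1135) was again first and Phc1 (52.9) again last, with Ring1 (738), Rnf2 (717), Phc2 (611), Cbx7 (582), Cbx2 (331), Bmi1 (281) and Cbx8 (198) between them. There the neighbours Ring1 and Rnf2, Phc2 and Cbx7, and Cbx2 and Bmi1 overlapped. By the median length of the protein-coding transcripts, Cbx7 was first in control (3814) and in Eed iKO (2778). Pcgf2 was then rank 3 in control and rank 5 in Eed iKO.

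In telogen the mean level per kilobase was highest for Rnf2 (322), with Pcgf2 (184) next to it and overlapping. Ring1 (110), Bmi1 (92.9), Cbx7 (63.6), Phc2 (49.6) and Cbx2 (36.5) followed, each overlapping the next, and Cbx8 (15.5) and Phc1 (3.92) stood below them without overlap. In anagen Rnf2 (303) was first without overlap, followed by Pcgf2 (133), Bmi1 (122) and Ring1 (89.5), each overlapping the next. Phc2 (51.9), Phc1 (41.4), Cbx2 (31.98), Cbx8 (27.5) and Cbx7 (23.9) lay lower, each again overlapping the next. By this length Phc1 was rank 9 of the 9 in telogen and rank 6 in anagen, while Cbx7 was rank 5 in telogen and rank 9 in anagen. By the median transcript length, Phc1 was rank 9 and rank 7, and Cbx7 rank 3 and rank 5. Rnf2 was also first in anagen by the median length, but there it overlapped Bmi1.

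As a share of the summed level per kilobase of Phc1, Phc2 and Phc3, Phc1 made up 0.927% ± 0.606 in telogen and 11.3% ± 5.43 in anagen (SD, n = 3). Phc3 held most of the PHC level in every group, from 58.3% in Eed iKO to 87.1% in telogen. Of the summed level of 4 CBX genes (Cbx2, Cbx6, Cbx7 and Cbx8), Cbx7 made up 20.7%, 49.9% and 41.6% in the telogen libraries and 12.9%, 19.1% and 14.8% in those of anagen. Cbx8 made up 9.26% ± 2.55 in telogen and 17.3% ± 2.54 in anagen. In the Eed table, the share of Cbx7 was 43.1% ± 5.54 in control and 39.5% ± 10.5 in Eed iKO, and that of Cbx2 26.3% ± 2.18 and 23.5% ± 4.57. With the median transcript length in place of the longest, 35 of 36 shares of the 9 genes moved by more than their SD, so the order of genes depends on the length chosen.

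Reads from overlapping genes cannot be told apart where strand was not kept, and the counting strand is not given in the sources used here. Of the exon bases of Rnf2, 3.83% are shared with a gene on the other strand, and 1.54% of those of Cbx7. The share was 0 for the other 7 of the 9 genes.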

How the data were processed

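RNA-seq of 12 libraries of sorted HFSCs was analysed from the normalized tables that the authors deposited. Per the labels and methods, the authors amplified total RNA (NuGEN Ovation), sequenced paired ends, assigned reads to Gencode vM20 transcripts with Kallisto 0.42.5, and compared groups with DESeq2 (given as version 3.11 in the submitters' processing notes, with mm10 as the build). The deposited signal is the count of a gene divided by the DESeq2 size factor of its library. In the Eed table, all values (100%) were whole multiples of 1 constant per library (tolerance 0.1), so whole reads were recovered. For the hair cycle, 19.0% to 25.4% of the values above 0 were whole, so the depth is unknown. Deposited columns of fold changes, standard errors and p-values of the authors were not used.

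Groups came from the labels. The 9 genes and the other lists were chosen with earlier results of these data known. The genes named are the 9, Eed, other PRC1 genes that were called or are CBX, PHC or PCGF paralogs, Ezh2, Ezh1, Suz12, Cdkn2a and Cdkn2b, markers at or near 0, and the 2 genes most correlated with each called member. L3mbtl2, Rybp, Rbbp7, Phf19, H2-Ab1, Pecam1, Krt5, Krt14 and Nfatc1 fall outside this rule and were chosen after their values were seen. A further gene that meets it is not reported here and was left out of list counts and shares. Genes were filtered with filterByExpr of edgeR 4.0.16 (count minimum 10) and tested with limma 3.58.1 (intensity trend, pseudocount 1, R 4.3.3) within each table, with Benjamini-Hochberg adjustment over all genes tested. Paralog ratios were compared with two-sided exact permutation tests. Alternatives were a pseudocount of 0.1, no filter, TMM scaling, no intensity trend, leaving out each library, a block for the replicate number, the thresholds of the methods (log2 fold change over 1.5 or 2 with unadjusted p under 0.05), and edgeR and DESeq2 1.42.0 on recovered reads. Levels and shares per kilobase were not among the planned comparisons with either transcript length. The median transcript length was added after the data were seen. The functions were checked on simulated data. No label names a batch. Positions, exons and transcript lengths are from GENCODE vM21 (GRCm38).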

Additional observations from a re-analysis of the deposited data

How the results depend on the processing

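The call of Phc1 in anagen held under 10 of 11 alternatives and no PRC1 gene was called in Eed iKO under any of the alternatives run. The number of all genes called in Eed iKO, 4, was 2 without the intensity trend, 263 at the thresholds of the methods, 679 with DESeq2, and 1 to 188 with a library left out, the highest without Eed iKO replicate 3. In the hair cycle, 1556 became 842 without the intensity trend, 686 at the thresholds of the methods and 590 to 1534 with a library left out, the lowest without anagen replicate 1. The cause was not tested. Of the 9 genes, 0 to 2 were called in anagen with a library left out, with 0 without anagen replicate 3 and 2 without telogen replicate 1. For the 27 other PRC1 genes and H2A deubiquitinases, 0 were called without the intensity trend. At the thresholds of the methods, where Auts2 falls short, 0 were called, and 0 to 2 with a library left out.

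For each library, the departure from its group mean was correlated with that of each library of the other group. In the Eed table, r was 0.039, 0.068 and 0.193 for replicates 1, 2 and 3 with equal numbers. Unequal numbers there gave -0.145 to 0.077, so the replicate 3 value was the highest. In the hair cycle table, equal numbers gave -0.035, -0.071 and -0.029, and unequal numbers -0.017 to 0.055. Whether libraries of equal number share more than the number was not tested. With a block for the replicate number, 424 genes were called in Eed iKO and 0 of the 27 other PRC1 genes in the hair cycle (Auts2 adjusted p = 0.051), and the block changed no call among the 9.

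Signs turned for differences near 0, and also for Pcgf1 in Eed iKO, whose main log2 fold change was -0.42. With a library left out, the log2 fold change in Eed iKO ran from -0.59 to 0.41 for Ring1, -0.35 to 0.38 for Cbx8, -0.033 to 0.092 for Phc2, -0.17 to 0.10 for Eed, -0.85 to 0.051 for Pcgf1, -0.15 to 0.031 for Pcgf3, -0.13 to 0.21 for Pcgf5, -0.32 to 0.22 for Pcgf6, -0.22 to 0.015 for Ezh2, -0.0094 to 0.24 for Suz12 and -0.61 to 0.97 for Cdkn2b. In edgeR and DESeq2, Cbx8 gave -0.0035 and -0.0058 and Eed 0.0049 and 0.0025. In anagen it ran from -0.31 to 0.14 for Rnf2, -0.076 to 0.27 for Phc2, -0.029 to 0.32 for Eed, -0.38 to 0.22 for Pcgf5 and -0.085 to 0.24 for Suz12. The difference in log2 ratio in Eed iKO ran from -0.084 to 0.33 for Bmi1 over Pcgf2 and -0.31 to 0.34 for Cbx2 over Cbx7. With 3 libraries a group, differences whose interval spanned 0 could not be told from 0.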
